A study of Mus musculus with 20 samples.

Results

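The P2X receptors are ATP-gated cation channels, and their 7 genes, P2rx1 to P2rx7, were taken by Ensembl identifier from the 37620 genes measured in sorted Trpv1 neurons of mouse dorsal root ganglia (DRG). RNA-seq was performed on neurons of 5 male and 5 female donors, with a library from lumbar (L4-5) and another from sacral (L6-S1) ganglia of each donor, so that 20 libraries fell into 4 groups of 5. All 4 groups were adult mice of 6 to 8 weeks, homozygous for Trpv1tm2Bbm, a reporter allele in which the Trpv1 gene also drives placental alkaline phosphatase and nuclear β-galactosidase (PLAP-nLacZ), and none of them received a treatment. Every library therefore carries the reporter, and none comes from mice without it. Cells were sorted as the brightest of those that had cleaved the fluorescent β-galactosidase substrate DDAOG to DDAO, so the gate reports activity of the Trpv1 locus and not a cell type as such. Each donor label holds 2 animal numbers, while the study's methods count single mice, and whether animals were pooled is not given in the sources used here. The lumbar and sacral libraries that share animal numbers were treated as pairs.

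A P2X channel is a trimer of subunits that opens a cation pore when extracellular ATP binds. In sensory ganglia P2X3, alone or joined with P2X2, is known as the channel through which small-diameter nociceptors, including afferents of bladder and gut, respond to ATP released by damaged or stretched tissue. P2X4 and P2X7 are best known from microglia and macrophages, P2X7 is also known from satellite glia of DRG and needs high concentrations of ATP, and P2X1 is known from smooth muscle and platelets. P2X6 hardly forms channels without another subunit, and P2X5 carries small currents in rodents.

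Values are the deposited log2 RPKM, in which reads on a gene are divided by its length and scaled for each library before the logarithm. These values compare levels between genes per length, and a difference of 1 is a doubling. The scaling is not by library size alone, since every library has the same median of 0.93, by a step not given in the sources used here. Differences between lumbar and sacral libraries are therefore relative to that common median. The median sacral minus lumbar difference of all genes tested was 0.11 in the deposited values and 0.429 with scaling to total reads (voom). The reads behind each value were worked back from the deposited steps. Libraries held 43880269 to 66358931 such reads on genes, and 20720 to 22507 genes had a value in a library. Trpv1 itself had 1222 to 8345 reads in every library, at 3.74 ± 0.41 (mean log2 RPKM ± SD, n = 10) in lumbar and 4.70 ± 0.35 in sacral libraries. It was higher in sacral DRG in 10 of 10 donors, by 0.96 (standard error 0.15, adjusted p = 3.6e-05, limma). Markers of large myelinated neurons were low but present, with Ntrk3 at 600 to 2663 reads and Calb1 at 95 to 400 reads per library, while Calb2 had a value in 6 libraries and at most 12 reads.

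Of the 7 genes, 6 had a value in all 20 libraries and 4 were expressed highly enough to enter the test between levels (P2rx2, P2rx3, P2rx4 and P2rx7). These are the genes whose upstream sequence is shown, because all of them differed between the levels. P2rx2 lies on chromosome 5 of mm9 (110768831 to 110772168, minus strand), P2rx3 on chromosome 2 (84838740 to 84877619, minus strand), P2rx7 on chromosome 5 (123093920 to 123141441, plus strand) and P2rx4 16151 bases beyond it (123157593 to 123179747, plus strand). The 250 bases before the outermost annotated coding transcript start that does not run into an exon were read from the NCBIM37 genome, which is mm9, with GENCODE M1 transcripts. They are written 5′ to 3′ along the gene, with the GC box GGGCGG or its reverse complement in capitals. The windows are chr5:110772169-110772418 for P2rx2, chr2:84875645-84875894 for P2rx3, chr5:123157343-123157592 for P2rx4 and chr5:123093670-123093919 for P2rx7.
P2rx2: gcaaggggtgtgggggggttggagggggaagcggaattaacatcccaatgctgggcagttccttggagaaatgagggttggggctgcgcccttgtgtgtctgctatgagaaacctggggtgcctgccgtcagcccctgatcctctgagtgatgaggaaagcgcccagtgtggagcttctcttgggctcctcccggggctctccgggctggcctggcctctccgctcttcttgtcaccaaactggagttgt
P2rx3: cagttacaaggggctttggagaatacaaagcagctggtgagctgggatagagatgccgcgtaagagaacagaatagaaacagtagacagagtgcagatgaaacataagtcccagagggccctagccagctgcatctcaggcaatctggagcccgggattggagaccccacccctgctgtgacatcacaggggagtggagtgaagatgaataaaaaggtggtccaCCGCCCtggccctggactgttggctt
P2rx4: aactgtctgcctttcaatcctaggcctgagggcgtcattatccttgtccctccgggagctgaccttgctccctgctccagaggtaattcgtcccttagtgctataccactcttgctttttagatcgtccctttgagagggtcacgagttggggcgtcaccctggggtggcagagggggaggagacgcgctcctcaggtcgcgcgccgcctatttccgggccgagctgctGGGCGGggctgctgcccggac
P2rx7: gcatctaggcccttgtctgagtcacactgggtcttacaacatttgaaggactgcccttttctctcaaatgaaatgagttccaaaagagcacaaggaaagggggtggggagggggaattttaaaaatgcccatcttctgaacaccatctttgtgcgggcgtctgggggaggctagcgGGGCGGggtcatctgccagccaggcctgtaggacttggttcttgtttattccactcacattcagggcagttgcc
A GC box stood in the windows of P2rx3, P2rx4 and P2rx7, and 40.1% of 22367 windows of the same length before protein-coding genes hold one on either strand. Unlike the 4 shown, the latter lie before the outermost start whether or not they run into an exon. Neither the RUNX core TGTGGT, present in 12.7% of those windows, nor the TATA box TATAAA, present in 12.3%, was found in any of the 4, with both strands searched. The P2rx4 window held 16 CpG dinucleotides, against 7 for P2rx2 and 4 each for P2rx3 and P2rx7, and a median of 9 over all windows. A match or its lack describes these letters alone. For P2rx3 the outermost start was passed over, since it lies within the neighbouring gene Ssrp1, so the window shown lies inside the annotated span of P2rx3.

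P2rx3 was by far the most abundant P2X transcript. Its mean log2 RPKM over the 20 libraries was 5.31 ± 0.53 (SD), from 1795 to 11368 reads, followed by P2rx4 at 1.68 ± 0.31, P2rx7 at 1.38 ± 0.73 and P2rx2 at 0.67 ± 0.90. P2rx6 was at -1.45 ± 0.90, P2rx5 at -1.60 ± 0.74, and P2rx1 was at the limit of detection. P2rx3 made up 63.6% to 88.6% of the summed P2X RPKM in lumbar libraries (median 78%) and 78.1% to 88.9% in sacral libraries (median 85%). Neighbours in this order were compared over donors, with both libraries of a donor averaged, by exact sign-flip tests adjusted over the 5 pairs (Benjamini-Hochberg). P2rx3 exceeded P2rx4 by 3.63 ± 0.39 (SD, n = 10 donors) on the log2 scale, or 12.4-fold, in 10 of 10 donors (exact test, adjusted p = 0.0049). P2rx2 exceeded P2rx6 by 2.12 ± 0.64 in 10 of 10 donors, with the same exact adjusted p of 0.0049. The other neighbours could not be separated. P2rx4 was above P2rx7 by 0.30 ± 0.52 in 7 of 10 donors (exact test, adjusted p = 0.12). P2rx7 was above P2rx2 by 0.71 ± 1.0 in 6 of 10 donors (exact test, adjusted p = 0.1), and P2rx6 above P2rx5 by 0.15 ± 0.80 in 5 of 10 donors (exact test, adjusted p = 0.59).

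The ranks of P2rx2, P2rx4 and P2rx7 differed between the levels, which was not itself tested. P2rx5 and P2rx6 also changed places, but could not be separated in lumbar or sacral libraries (exact sign-flip tests, adjusted p = 0.84 and 0.17). In lumbar libraries P2rx7 ranked second, above P2rx4 by 0.42 ± 0.42 in 9 of 10 libraries (exact sign-flip test, adjusted p = 0.012), and P2rx4 stood above P2rx2 by 1.33 ± 1.0 in 9 of 10 (exact test, adjusted p = 0.0098). In sacral libraries P2rx4 ranked second, above P2rx2 by 0.71 ± 0.40 in 10 of 10 libraries (exact test, adjusted p = 0.0033). There P2rx2 and P2rx7 differed by 0.31 ± 0.81, which did not pass (exact test, adjusted p = 0.25).

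**Figure D1:**
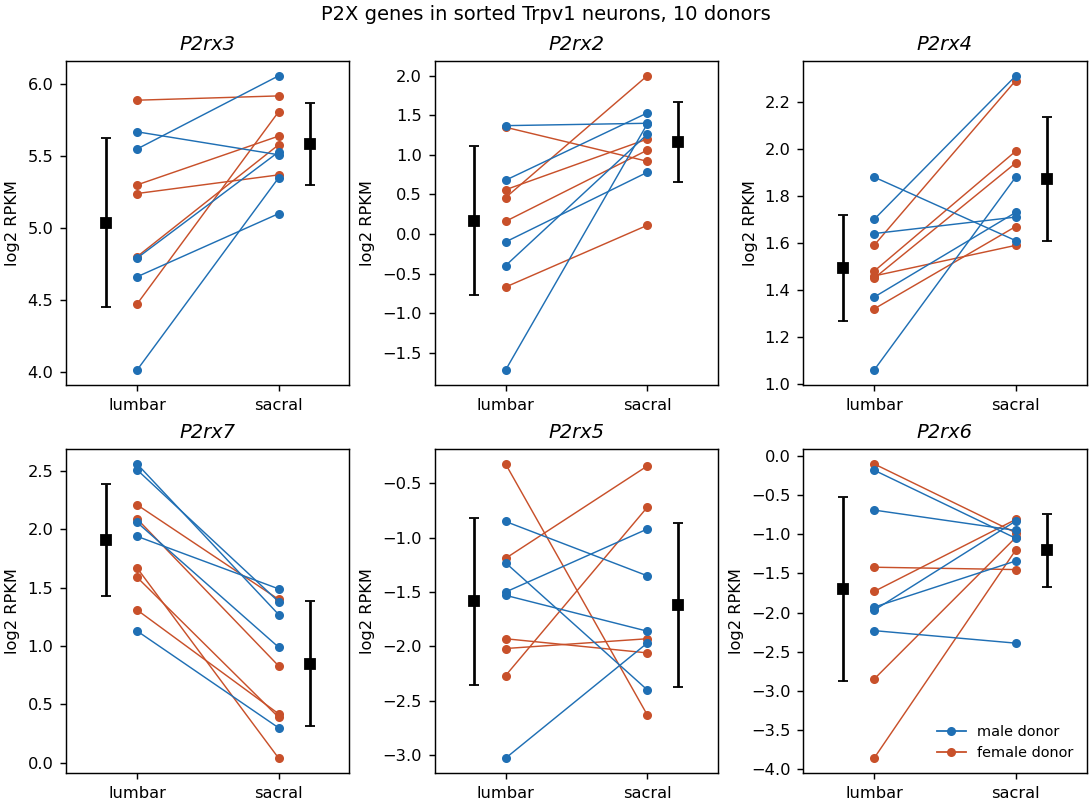
Log2 RPKM of 6 P2X genes (y axis, scaled for each gene) in the lumbar and sacral library of each of 10 donors, joined by a line and coloured by sex, with the mean and SD of 10 libraries as black squares and bars. P2rx3, P2rx2 and P2rx4 were higher in the sacral library of 9 of 10 donors, P2rx7 was lower in all 10, and P2rx5 and P2rx6 split 5 to 5.

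All 4 P2X genes tested differed between the levels at an adjusted p of at most 0.05, P2rx2, P2rx3 and P2rx4 with more in sacral and P2rx7 with more in lumbar DRG. Among all 16304 genes tested, 45.5% were called by the same rule, 30.3% higher in sacral and 15.2% higher in lumbar DRG, so 4 of 4 must be read against that share. The median difference of all genes was 0.11 towards sacral, and of the 4 P2X genes it was 0.46. With the libraries rescaled by TMM factors, the median of all genes moved to about 0 and the share of calls that were higher in sacral DRG fell from 66.6% to 51%, while the 4 P2X genes passed in the same directions. Quantile normalization and voom with TMM left 3 of the 4 calls and each sex alone left 2. A covariate of glial markers left 0, with P2rx2 and P2rx3 below 0 but not passing. In such bulk libraries fewer cells of a type and less RNA per cell cannot be told apart.

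P2rx3, the subunit of the ATP channel of nociceptors, had log2 RPKM values of 5.67, 4.01, 4.66, 4.79 and 5.55 in the lumbar libraries of males 1 to 5, and of 5.51, 5.35, 5.10, 5.53 and 6.06 in their sacral libraries. In females 1 to 5 it had 5.30, 5.24, 4.47, 4.80 and 5.89 in lumbar and 5.64, 5.37, 5.81, 5.58 and 5.92 in sacral libraries. The levels overlapped, with 5 lumbar libraries below the lowest sacral one and male 2 lowest of all, and lumbar libraries were spread more widely (SD 0.59 against 0.29). P2rx3 was higher in sacral DRG by 0.55 (standard error 0.17, adjusted p = 0.013, limma), or 1.46-fold, in 9 of 10 donors. Differences within a donor ran from -0.16 to 1.34. The call was lost under quantile normalization (0.35, adjusted p = 0.067), in males alone (0.57, adjusted p = 0.093) and in females alone (0.52, adjusted p = 0.071, all limma). With a glial covariate the difference was -0.32, below 0 but not passing (standard error 0.29, adjusted p = 0.83, limma). With voom on total reads it rose to 0.87. P2rx3 shares 51 exon bases, 1.83% of its own, with Ssrp1 on the opposite strand. Ssrp1, which encodes a subunit of a histone chaperone, was higher in sacral DRG by 0.31 (standard error 0.09, adjusted p = 0.0071, limma), and whether counting used the strand is not given in the sources used here.

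P2rx2, whose product joins P2X3 to form a slowly desensitizing channel, had lumbar values of 0.68, -1.72, -0.10, -0.40 and 1.37 in males and 1.35, 0.46, -0.67, 0.16 and 0.56 in females. Its sacral values were 1.53, 1.39, 0.78, 1.26 and 1.40 in males and 0.92, 2.0, 0.11, 1.06 and 1.20 in females. The lumbar libraries ranged more widely than the sacral ones, 4 of them below the lowest sacral value, and male 2 was again the lowest. P2rx2 was higher in sacral DRG by 1.0 (standard error 0.29, adjusted p = 0.0074, limma), or 1.99-fold, in 9 of 10 donors, and the exception was female 1. It rested on 24 to 466 reads per library. With a glial covariate the difference was -0.30, below 0 but not passing (standard error 0.50, adjusted p = 0.93, limma). In females alone the difference was 0.69 and did not pass (standard error 0.33, adjusted p = 0.15, limma), whereas in males alone it was 1.31 (standard error 0.41, adjusted p = 0.03, limma). The difference between the sexes did not pass either (-0.62 for females minus males, standard error 0.57, unadjusted p = 0.29, limma).

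Whether P2rx2 shifted relative to its partner was asked directly by subtracting the log2 RPKM of P2rx3 from that of P2rx2 in each library. The result was -4.87 ± 0.53 (SD, n = 10) in lumbar and -4.42 ± 0.62 in sacral libraries, that is 29.2 and 21.4 times as much P2rx3 as P2rx2 per length. Over single libraries the excess of P2rx3 ran from 10.3-fold to 53.2-fold, and the levels overlapped. The sacral value was higher by 0.45 ± 0.87 (SD) in 7 of 10 donors, with donors from -0.78 to 1.78, and did not exceed the spread (exact sign-flip test over 10 donors, two-sided p = 0.13, the smallest possible being 0.002). Hence P2rx2 and P2rx3 were each higher in sacral DRG, and a change of their ratio could not be shown with 10 donors.

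**Figure D2:**
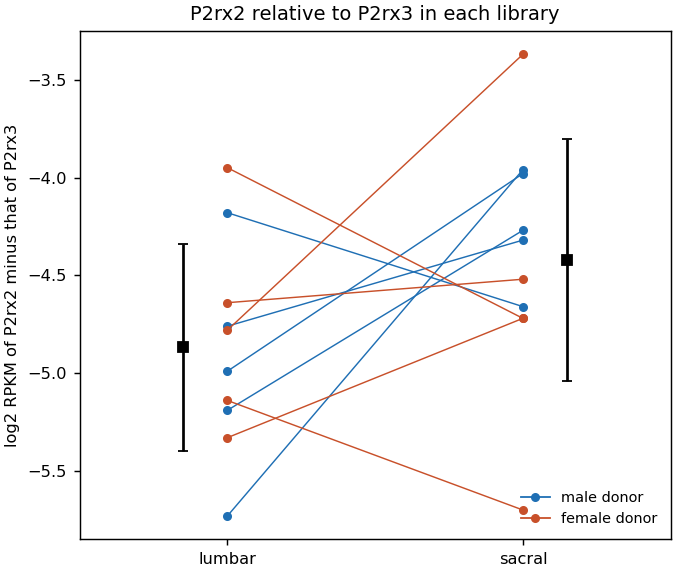
Log2 RPKM of P2rx2 minus that of P2rx3 (y axis) in the lumbar and sacral library of each donor, joined by a line and coloured by sex, with the mean and SD of 10 libraries as black squares and bars. Of 10 donors 7 had a higher value in sacral DRG, and the means were -4.87 and -4.42.

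P2rx4, a channel known from microglia and from intracellular vesicles, had lumbar values of 1.70, 1.37, 1.64, 1.88 and 1.06 in males and 1.48, 1.59, 1.32, 1.46 and 1.45 in females. Its sacral values were 2.31, 1.73, 1.71, 1.61 and 1.88 in males and 1.99, 2.29, 1.67, 1.59 and 1.94 in females. It varied least among the P2X genes, and 5 sacral libraries stood above the highest lumbar one. P2rx4 was higher in sacral DRG by 0.38 (standard error 0.11, adjusted p = 0.0085, limma), or 1.3-fold, in 9 of 10 donors, male 4 being the exception. The call was lost under voom with TMM (0.25, adjusted p = 0.054), in males alone (0.32, adjusted p = 0.18) and with a glial covariate (0.09, adjusted p = 0.96, all limma), and the value rose to 0.69 with voom on total reads. Its neighbour downstream, Camkk2, a kinase activated by calcium and calmodulin that lies on the opposite strand, was also higher in sacral DRG, by 0.51 (standard error 0.17, adjusted p = 0.022, limma). P2rx4 shares no exon base with another annotated gene.

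P2rx7 was the only P2X gene tested that was higher in lumbar DRG. It had lumbar values of 1.94, 2.51, 2.06, 2.56 and 1.13 in males and 1.67, 1.59, 2.21, 2.09 and 1.31 in females. Its sacral values were 1.49, 1.38, 0.99, 1.27 and 0.30 in males and 0.04, 0.39, 1.40, 0.83 and 0.42 in females. The levels overlapped little, since 8 lumbar libraries lay above the highest sacral one and 6 sacral libraries below the lowest lumbar one. The sacral minus lumbar difference was -1.06 (standard error 0.18, adjusted p = 8.2e-05, limma), a 2.08-fold excess in lumbar DRG, with the same direction in 10 of 10 donors and differences from -1.64 to -0.45. It rested on 326 to 1530 reads per library, and the call was lost with a glial covariate. The mean of 10 glial markers was higher in lumbar DRG in the same 10 of 10 donors, by 0.92 ± 0.24 (SD). P2rx7 and P2rx4, which lie head to tail on chromosome 5, thus moved in opposite directions, and their deviations from the group means were unrelated (Pearson r = 0.07, Spearman rho = -0.11, 20 libraries, given as a description).

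P2rx5 and P2rx6 lay below the limit for the test, a mean log2 RPKM above -1 in at least one group, and were tested only when no filter was applied. P2rx5, which lies on chromosome 11 (72973923 to 72986187), 61606 bases before the Trpv1 gene that carries the reporter, had a median of -1.52 in lumbar (-3.03 to -0.32) and -1.90 in sacral libraries (-2.63 to -0.34). It differed by -0.03 (standard error 0.34, adjusted p = 0.96, limma) and was higher in sacral DRG in 5 of 10 donors. P2rx6, on chromosome 16 (17561978 to 17577893), had a median of -1.83 in lumbar (-3.86 to -0.10) and -1.04 in sacral libraries (-2.39 to -0.81), again with 5 of 10 donors higher in sacral DRG. Its difference of 0.49 did not pass (standard error 0.37, adjusted p = 0.33, limma), where 32.3% of the 22796 genes tested without the filter did. P2rx6 shares 554 exon bases, 13.9% of its own, with Slc7a4 on the opposite strand, a member of the cationic amino acid transporter family that was higher in sacral DRG by 0.96 (standard error 0.20, adjusted p = 0.00071, limma), so the reads of P2rx6 are uncertain.

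P2rx1 (chromosome 11, 72812605 to 72828702) had 33 reads in all 20 libraries together, 22 in lumbar and 11 in sacral ones. It was listed with a value in 7 lumbar libraries, including all 5 of males, and in 3 sacral ones. Reads numbered 1, 6, 3, 5 and 1 in the lumbar libraries of males and 4, 0, 0, 2 and 0 in those of females. In sacral libraries they numbered 4, 0, 0, 3 and 0 in males and 0, 0, 0, 0 and 4 in females. A count of 0 in a library allows up to 3 reads. The counts themselves were not tested. Without the filter, the fit to the 10 values present gave a sacral minus lumbar difference of -0.11 (standard error 0.81, adjusted p = 0.94, limma). With so few reads no fold is given. Its neighbours Atp2a3, a calcium pump, and Camkk1, a calmodulin-dependent kinase kinase, were higher in sacral DRG by 1.15 (standard error 0.23, adjusted p = 0.0004) and 0.67 (standard error 0.22, adjusted p = 0.015, both limma).

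The sexes were compared within each level. No P2X gene passed, against 0.0427% of 16386 genes called in lumbar and 0.0368% of 16321 in sacral DRG. The largest of the 8 differences were those of P2rx7 in sacral (-0.47 for female minus male, standard error 0.27, adjusted p = 0.67, limma) and P2rx2 in lumbar DRG (0.41, standard error 0.44, adjusted p = 0.74, limma). P2rx7 had group means of 2.04 ± 0.57 in male lumbar, 1.09 ± 0.48 in male sacral, 1.78 ± 0.37 in female lumbar and 0.62 ± 0.52 in female sacral libraries (SD, n = 5). P2rx3 differed by 0.20 (standard error 0.27) in lumbar and 0.15 (standard error 0.27) in sacral, and P2rx4 by -0.07 and 0.05 (standard error 0.17 each). The sex by level interaction was not called for any gene (0% of 16304, with 658 at an unadjusted p under 0.05, limma), and for P2rx3, P2rx4 and P2rx7 it was -0.05, 0.12 and -0.21 (standard errors 0.34, 0.22 and 0.35).

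Markers of the cells that the gate could hold were counted by the same rule, against 30.3% of all genes called higher in sacral and 15.2% higher in lumbar DRG, and the shortest lists allow no reading against these shares. All 10 neuronal markers, Trpv1 among them, were higher in sacral DRG (median difference 0.68), with a summed level of 896 to 1533 RPKM in lumbar and 1509 to 2028 RPKM in sacral libraries. Of 10 glial markers, such as Sox10 and Fabp7, 9 were higher in lumbar DRG (median -0.98), with summed levels of 1581 to 3231 RPKM in lumbar and 1041 to 1693 RPKM in sacral libraries, and no glial marker was at 0 in any library. Of 10 macrophage markers 5 were tested, and 3 were higher in lumbar DRG, with sums of 7.73 to 43.1 RPKM in lumbar and 3.63 to 9.88 RPKM in sacral libraries. Cx3cr1, Adgre1, C1qa and C1qc were at 0 in some libraries. Vessel markers were higher in lumbar DRG in 7 of 9 cases and in sacral in 1, with sums of 97.4 to 199 RPKM and 99.5 to 209 RPKM. These sums mostly reflect Rgs5, the marker higher in sacral DRG, at a mean log2 RPKM of 6.94. The next most abundant, Cdh5, was at 3.24. Markers of nonpeptidergic nociceptors, the neurons in which P2rx3 is best known, were higher in sacral DRG in 6 of 8 cases (median 0.64), with sums of 104 to 270 RPKM in lumbar and 163 to 437 RPKM in sacral libraries. Mrgprd, their defining receptor, did not pass (0.51, standard error 0.33, adjusted p = 0.21, limma). Of 6 peptidergic markers 4 were higher in sacral DRG (sums 1402 to 2196 and 1470 to 2301 RPKM). The peptide genes Calca (-0.16, standard error 0.09, adjusted p = 0.16, limma) and Tac1 (0.10, standard error 0.08, adjusted p = 0.37, limma) did not pass. With TMM factors Calca passed as higher in lumbar DRG (-0.27, adjusted p = 0.017, limma). Of 5 markers of large myelinated neurons 3 were tested (sums 5.04 to 9.58 RPKM in lumbar and 4.36 to 8.99 RPKM in sacral libraries). Only Pvalb was called, higher in lumbar DRG, on 0 to 113 reads per library and mean log2 RPKM of -0.29 and -2.36. Of 8 blood markers 3 were higher at each level (sums 0.503 to 23.7 and 0.522 to 38.5 RPKM). The part of macrophage, vessel and blood RNA in the P2X differences was not tested.

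The P2X genes were set beside the glial markers in each library. The mean log2 RPKM of the 10 glial markers was 6.59 ± 0.36 (SD, n = 10) in lumbar and 5.67 ± 0.35 in sacral libraries and was higher in lumbar DRG in 10 of 10 donors. Because the levels differed in this mean, relations were computed within each level, 8 in all. P2rx7 followed the glial mean in sacral (Pearson r = 0.87, permutation p adjusted over the 8 relations 0.016, Spearman rho = 0.77, adjusted 0.059, n = 10) and in lumbar libraries (r = 0.71, adjusted permutation p = 0.047, rho = 0.72, adjusted 0.063, n = 10). Without the 2 libraries farthest from the median of the glial mean r was 0.93 and 0.50. P2rx3 ran against it in lumbar (r = -0.81, adjusted permutation p = 0.02, rho = -0.76, adjusted 0.059, n = 10, and r = -0.56 without the 2 farthest) and less clearly in sacral libraries (r = -0.40, adjusted permutation p = 0.34, rho = -0.49, adjusted 0.25). P2rx2 gave r = -0.70 in lumbar (adjusted permutation p = 0.047, rho = -0.61, adjusted 0.13, -0.53 without the 2 farthest) and -0.31 in sacral libraries (adjusted permutation p = 0.45, rho = -0.16, adjusted 0.66). P2rx4 gave r = -0.06 in lumbar and -0.52 in sacral libraries (adjusted permutation p = 0.86 and 0.19, rho = -0.25 and -0.44, adjusted 0.56 and 0.27). No rank correlation passed after adjustment, so the relations rest on the linear measure.

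When the glial mean was added to the fit as a covariate, none of the 4 P2X genes passed, and 0.423% of all genes did. P2rx3 then stood at -0.32 (standard error 0.29, adjusted p = 0.83, limma), P2rx2 at -0.30 (standard error 0.50, adjusted p = 0.93) and P2rx4 at 0.09 (standard error 0.22, adjusted p = 0.96), while P2rx7 was within 0.01 of 0 (standard error 0.27). The standard errors were larger than without the covariate, since the glial mean and the level move together, and the level and the glial content of these libraries cannot be told apart by this fit.

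**Figure D3:**
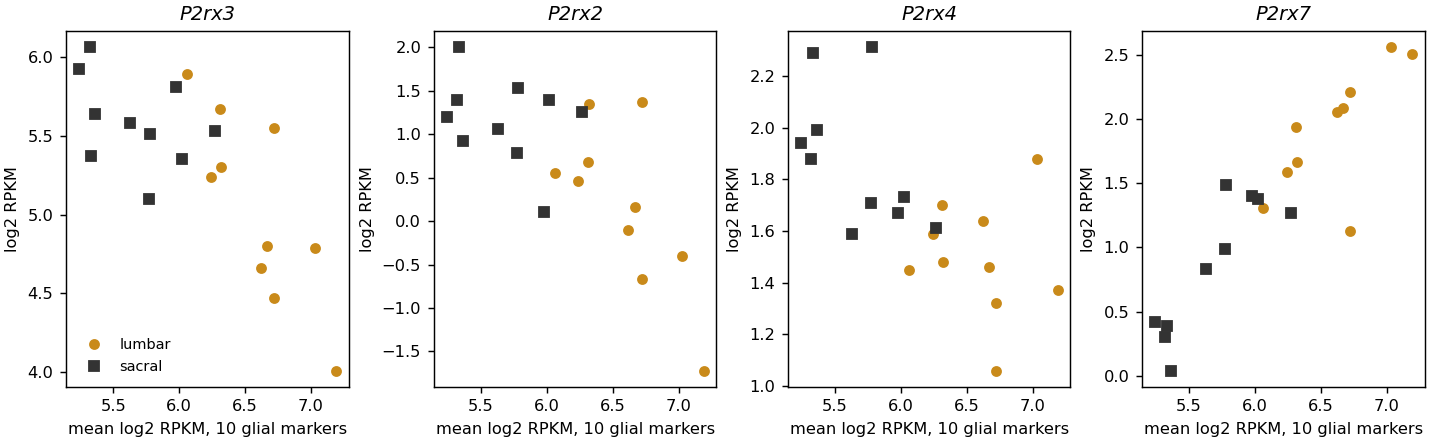
Log2 RPKM of P2rx3, P2rx2, P2rx4 and P2rx7 (y axes) against the mean log2 RPKM of 10 glial markers (x axes), one point per library, with lumbar libraries as circles and sacral libraries as squares. P2rx7 rises with the glial mean within both levels (r = 0.71 and 0.87), and P2rx3 and P2rx2 fall with it in lumbar libraries (r = -0.81 and -0.70).

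**Figure D4:**
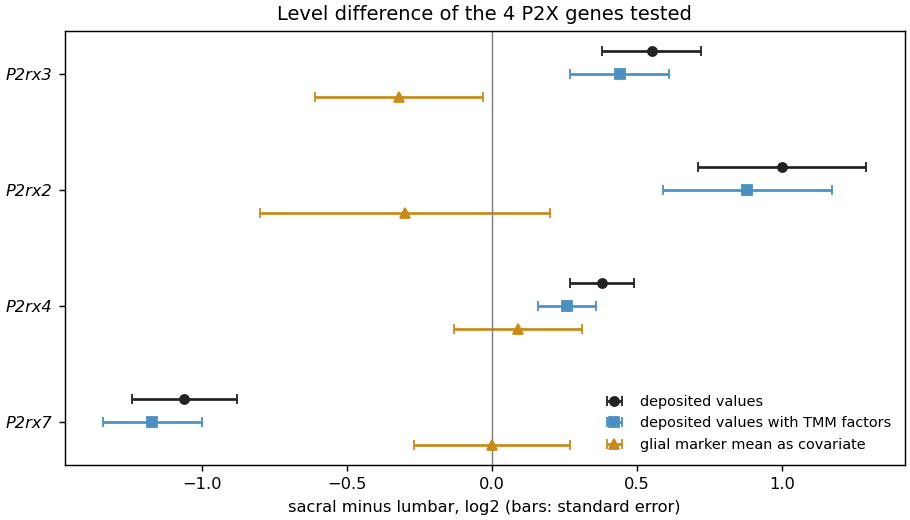
Sacral minus lumbar difference in log2 RPKM (x axis, bars are standard errors) of the 4 P2X genes tested, from the deposited values, from the same values rescaled by TMM factors, and with the glial marker mean as a covariate. TMM factors shift all genes of a library alike, so each estimate was lowered by the same amount by construction, and all directions were kept. With the covariate no gene passed, P2rx3 and P2rx2 lying below 0.

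The genes that surround the P2X channels in ATP signalling were described from a list of 34, of which 24 were tested. Between the levels 20 were called, 12 higher in sacral and 8 in lumbar DRG, which is 83.3% against 45.5% of all genes, with a median difference of 0.39 against 0.11. Under the stricter filter 18 of 21 were called, against 55.7% of all genes. The list was written by hand with earlier results of these data known, so its share is a description and not a test. Among routes of ATP release, Panx1, a channel of the plasma membrane, was higher in sacral DRG by 0.90 (standard error 0.10, adjusted p = 1.4e-06, limma) in 10 of 10 donors. Lrrc8a, the core of the volume-regulated anion channel, was higher by 0.44 and Panx2 by 0.42, whereas Gja1, the gap junction protein connexin 43 known from glia, was lower in sacral DRG, by -0.70 (standard error 0.13, adjusted p = 0.00019, limma). Calhm2, also listed under ATP release, was lower in sacral DRG too, at -0.62 (standard error 0.21, adjusted p = 0.021, limma), in 8 of 10 donors. Panx2 lost its call with TMM factors (adjusted p = 0.059, limma).

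The enzymes that break down extracellular nucleotides were split. Entpd3, an ectonucleotidase of sensory neurons, was higher in sacral DRG by 0.76 (standard error 0.13, adjusted p = 0.00015, limma) and Acpp, the phosphatase that turns AMP into adenosine in nociceptors, by 0.69 (standard error 0.13, adjusted p = 0.0003, limma), each in 10 of 10 donors. Entpd1, the ectonucleotidase CD39 of immune and vessel cells, at -1.04, Enpp1, which splits ATP to AMP and pyrophosphate, at -1.21, the alkaline phosphatase Alpl at -1.31 and Entpd2, known from glia of the peripheral nervous system, at -0.61 were higher in lumbar DRG. Nt5e, the other AMP-hydrolysing enzyme of nociceptors, gave 0.36 (standard error 0.17, adjusted p = 0.095, limma) and did not pass. Enpp2, from the same list, was higher in sacral DRG by 0.47 (standard error 0.08, adjusted p = 9.9e-05, limma) in 10 of 10 donors.

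Among the receptors for the products of these enzymes, P2ry1, a receptor for ADP, was higher in sacral DRG by 0.75 and P2ry12, the ADP receptor known from microglia and platelets, in lumbar DRG (-1.06, standard error 0.17, adjusted p = 5.8e-05, limma). The difference of P2ry12 equals that of P2rx7 to 2 decimals. Adora1 and Adora2a, receptors for adenosine, were higher in sacral DRG by 0.95 and 1.17. Of the 4 proteins reported to bind or modulate P2X channels, Tmem163, a zinc transporter of vesicles, was higher in sacral DRG by 1.07 (standard error 0.14, adjusted p = 1e-05, limma), the adaptor Apbb1 by 0.65 and the scaffold Cask by 0.45, while Vsnl1, a calcium sensor, was at -0.33 (standard error 0.12, adjusted p = 0.025, limma). P2ry4, P2ry6, P2ry13, P2ry14, Adora3, Slc17a9, Panx3, Calhm1, Entpd8 and Enpp3 lay below the limit for the test, and all but Enpp3 had no value in at least one library.

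**Figure D5:**
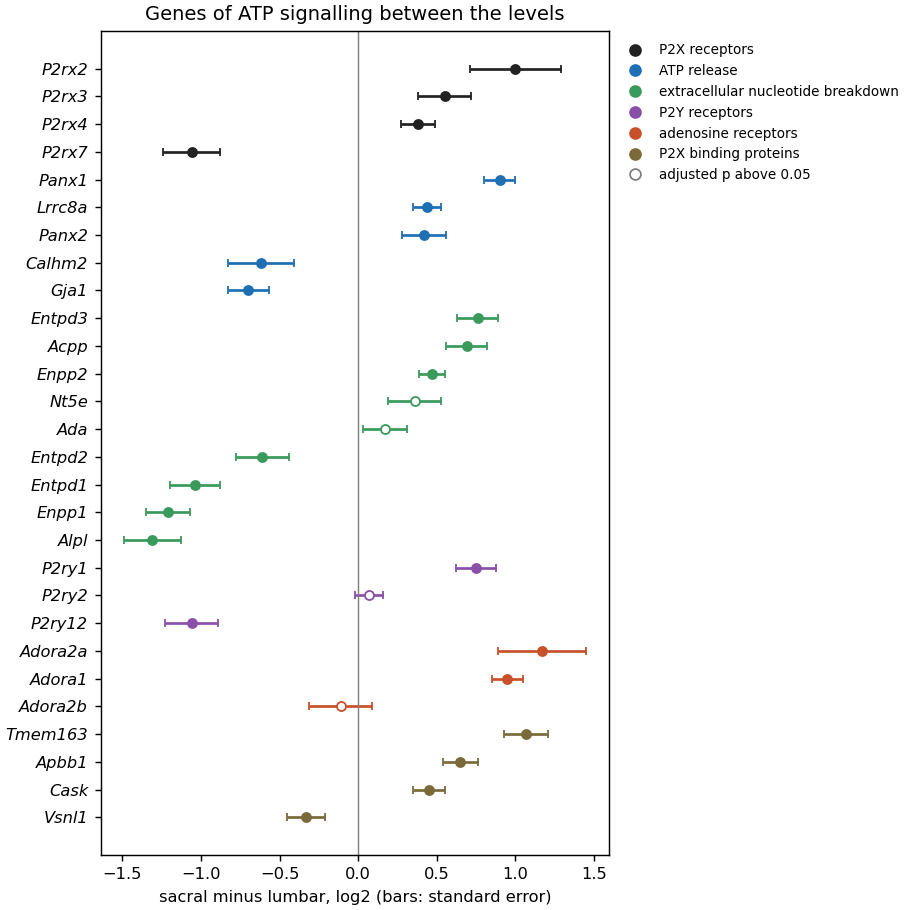
Sacral minus lumbar difference in log2 RPKM (x axis, bars are standard errors) of the 4 P2X genes and the 24 other genes of ATP signalling that were tested, coloured by role, with open points for an adjusted p above 0.05. P2rx7, P2ry12, Entpd1, Enpp1 and Alpl lie near or below -1, and P2rx2, Panx1, Adora1, Adora2a and Tmem163 near or above 0.90.

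The genes most like each P2X gene were found by the Pearson correlation of deviations from the 4 group means over 20 libraries, among 15318 genes. These correlations are the highest of many and are given without a test. P2rx3 was followed most closely by Tmem45b (r = 0.95), Rgs4 (0.94), a regulator of G protein signalling, and Tmem233 (0.91), and these stayed at 0.89 or above without the 2 libraries farthest from the median of P2rx3. P2rx7 was followed by Limch1, Rassf1 and Ankrd28 (r = 0.92 each), of which Limch1 was higher in lumbar DRG (-0.91, standard error 0.18, adjusted p = 0.00038, limma) while Rassf1 gave -0.02 (standard error 0.19, adjusted p = 0.93, limma). For P2rx2 the closest were D6Wsu163e (0.82), Abcf2 (0.81) and Txnl4b (0.80), and for P2rx4 Kdm4a (0.81), Tmtc4 (0.80) and Rpusd3 (0.79). For the scarce genes they were Ccnt1 (0.82), Zfp942 and Kcns2 (0.79 each) for P2rx5 and Chchd5 (0.85), Sephs2 (0.84) and Fam105a (0.80) for P2rx6. Among the P2X genes themselves, P2rx2 and P2rx3 deviated together (r = 0.66, rho = 0.66) and both deviated against P2rx7 (r = -0.63 and -0.59), while P2rx3 and P2rx4 were unrelated (r = -0.01). All values of a library share its depth and scaling.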

How the data were processed

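The authors checked read quality, aligned reads to the mm9 genome with Subread, counted uniquely mapped reads on Ensembl genes with featureCounts, and applied voom (limma) with TMM scaling (edgeR). Per the submitters' processing notes these were Subread 1.18 and 1.20.6, R 3.2.1 and 3.2.2, limma 3.26.9 and edgeR 3.12.1. The authors deposited log2 RPKM with one column per library. Every library has the same median of 0.93, a step not given in the sources used here. Empty cells (319449) have no value. Identifiers were matched to the NCBIM37 annotation for 37205 of 37620 genes.

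Reads were worked back from the steps of the values: 258988 of 263531 values under 500 reads (98.3%) were whole within 0.01 of a read at the annotated length. They served for depth and for voom as an alternative. Intervals and floors cover counting error only.

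Levels and sexes were compared on the log2 values by limma (version 3.58.1, statmod 1.5.0, R 4.3.3). The model held a mean for each of 4 groups, the donor as a random block (correlation 0.17) and variances moderated along expression. P-values were adjusted over all genes (Benjamini-Hochberg, 0.05). Genes were kept with a mean above -1 in at least 1 group, over at least 3 values (16422 kept, 16304 tested between levels). Empty cells were left out of the fit. Pairing comes from the animal numbers that a donor's libraries share. Their deviations from the group means correlated by 0.18 on average (0.04 to 0.3 over 10 pairs), against -0.04 for other donors of a sex. Single values were tested by exact sign flips over 10 donors, and correlations by 100000 permutations, both two-sided. The fits were checked on simulated data. Python 3.11.15, pandas 2.3.3, numpy 2.4.6, scipy 1.17.1 and matplotlib 3.10.9 were used.

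Alternatives were other filters, pseudocounts of 1 and 0.1 RPKM with empty cells at 0, quantile normalization, TMM factors, voom on reads, other donor models, no trend, quality weights, each donor left out, each sex alone, and a glial covariate. Named genes are the P2X genes, the ATP signalling list, Trpv1, overlapping genes and nearest coding neighbours, the 3 genes most like each P2X gene, and cell type markers. Members and lists were chosen with earlier results of these data known. Donors carry different animal numbers.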

Additional observations from a re-analysis of the deposited data

How the results depend on the processing

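The 4 P2X calls between levels held in 20 of 25 alternatives, including TMM factors, no filter, a stricter filter, both pseudocounts, the fit with no replicate block (4 calls, 6577 genes in all), the replicate block as a fixed effect (4) and each donor left out (4 to 4). P2rx3 lost its call under quantile normalization (0.35, adjusted p = 0.067) and P2rx4 under voom with TMM (0.25, adjusted p = 0.054), which left 3. With each sex alone 2 of the 4 passed, P2rx2 and P2rx7 in males and P2rx4 and P2rx7 in females, where 5 donors enter and 4640 and 3655 genes were called. With the glial covariate 0 of the 4 P2X genes and 0 of the other ATP signalling genes passed, among 69 genes in all (1485 at an unadjusted p under 0.05). P2rx2 (-0.30, standard error 0.50) and P2rx3 (-0.32, standard error 0.29) then lay below 0 without passing. Scaling to total reads in voom called 10874 genes, 87% higher in sacral DRG, with a median of 0.429, and raised P2rx3 to 0.87 and P2rx4 to 0.69, while a pseudocount of 1 RPKM lowered P2rx2 to 0.56. The ATP signalling genes gave 18 to 20 calls with a donor left out, 18 in males and 14 in females. No P2X gene passed for sex or for the interaction in any alternative run. P2rx2 minus P2rx3 stayed above 0 and short of the threshold in all 15 alternatives (0.03 to 0.73), with 0.45 and no pairing. In the order of levels 2 pairs passed in each leave-out (2 to 2), 4 in lumbar and 3 in sacral libraries alone. P2rx2 at 24 to 466 and P2rx5, P2rx6 and P2rx1 at fewer reads are the values that depth limits most.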
